A study of Oreochromis niloticus with 3 samples.

Results

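The first step of salinity was described in the hepatopancreas of juvenile Nile tilapia (Oreochromis niloticus) by comparing 1 library of fish kept at 8 psu (practical salinity units) with 1 library of fish kept in freshwater, at 0 psu. Each library was made from RNA pooled over 8 fish, and the tanks, 3 per salinity, all started in freshwater. The salinity of the 8 psu tanks was raised by 4 psu per day, after which the fish were reared for 5 weeks according to the labels, while the study's methods give a longer time and another diet and starting weight. The groups share the species, the stage, the tissue and the diet, and no genotype or further agent is named. A library from 16 psu completed the series and is used here only for context. Of the 29605 genes in the count table, 15873 had at least 10 counts in 1 of the 2 libraries and were kept, and 13732 did not reach that level.

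The hepatopancreas of teleost fish holds hepatocytes, which make plasma proteins, store fat and glycogen and synthesize fatty acids, together with strands of exocrine pancreas that secrete digestive enzymes. Nile tilapia lives in freshwater and tolerates brackish water. In freshwater the fish gains water and loses ions, and in water near the concentration of its blood both gradients are small. The gill, gut and kidney carry most of the ion transport, and the liver supplies fuel, amino acids and plasma proteins.

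The counts summed to 13628578 at 8 psu and 14627514 at 0 psu, and after scaling by the trimmed mean of M values (TMM) the effective library sizes were 14.2M and 14.0M counts, so counts of a gene in the 2 libraries can be read nearly side by side. Values are raw counts of reads per gene unless CPM, counts scaled to an equal library size, are named. The log2 fold change is that of CPM plus 0.5, 8 psu over 0 psu, which makes the difference of a low gene look smaller than it is. The interval beside a fold change is the log2 ratio that the exact 95% Clopper-Pearson bounds allow, without the added 0.5, and covers counting error only. A gene is said to have risen or fallen at 8 psu when it differed more than 2-fold and its reads differed between the libraries in a two-sided exact binomial test with Benjamini-Hochberg adjustment at 0.05. Each salinity had 1 library, so there is no replicate check of any difference. The read test sets 2 libraries against each other, holds no variation between fish or tanks, and says nothing of the salinities themselves, so no p-value is given. A count of 0 can stand for up to 3 counts, which is 0.211 CPM at 8 psu and 0.214 CPM at 0 psu.

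Most genes differed little. Of the 15873 genes, 14266 (89.9%) lay within 2-fold, the median log2 fold change was 0.00, and the quartiles were -0.36 and 0.36. At 8 psu 728 genes rose (4.59% of those kept) and 868 fell (5.47%), together 1596 or 10.1%. A fold limit with no read test gave 1607 genes, also 10.1%. With the library totals in place of TMM the median of all genes was 0.12, and 976 genes rose and 700 fell, so the balance between the directions depends on the scaling. The genes that rose or fell took 5.95% of the CPM at 8 psu and 8.97% at 0 psu.

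The direction differed with the level of the gene. Among 1865 genes with a mean under 1 CPM, 10.9% rose and 11.5% fell. In the next to highest of 5 classes of level, with 731 genes, 2.05% rose and 8.62% fell, and in the highest, with 164 genes, 1.22% rose and 7.32% fell. Larger differences were mostly losses: 100 genes fell and 37 rose past 4-fold, and of those with at least 100 counts in 1 library 43 fell and 15 rose. The 10 most abundant genes took 23.5% of all counts at 8 psu and 22.4% at 0 psu, and none of them rose or fell by the limits used. Of these, hpxa (hemopexin, a plasma heme carrier) had 686329 counts at 8 psu and 535402 at 0 psu, and apoc1, an apolipoprotein, had 205065 and 348966.

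**Figure D1:**
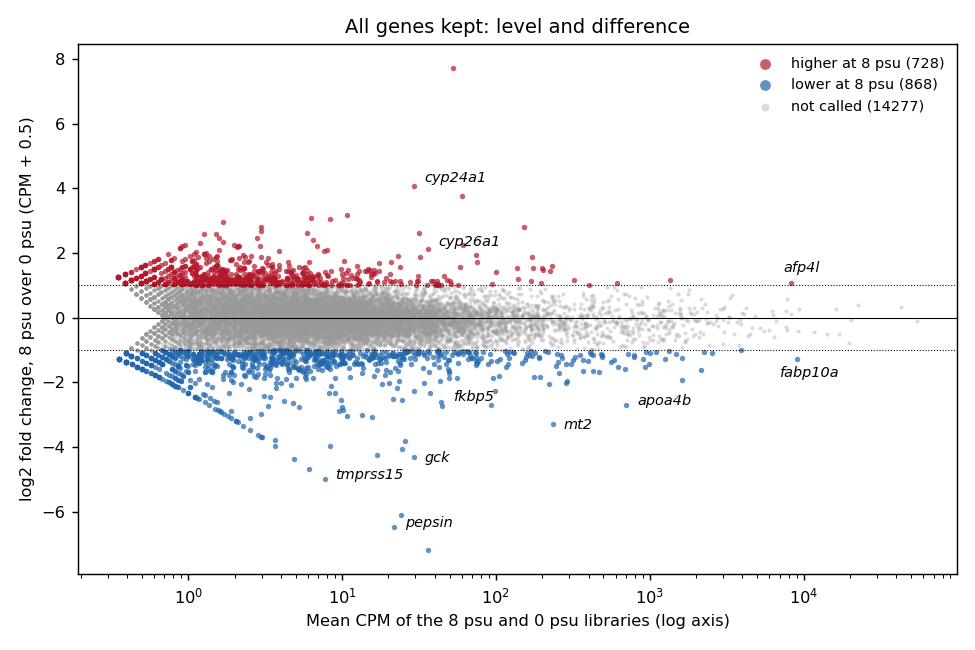
Log2 fold change, 8 psu over 0 psu, of the 15873 genes kept against their mean CPM in the 2 libraries (log axis), 1 point per gene. The 728 genes that rose at 8 psu are red, the 868 that fell are blue, and dotted lines mark 2-fold. The blue points reach further from 0 than the red ones above 100 CPM.

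The labelled tissue could be recognised in both libraries. Of 25 hepatocyte marker loci listed, 24 were kept, with a summed level of 108372 CPM at 8 psu and 109819 CPM at 0 psu, and a median log2 fold change of 0.09. All 8 exocrine pancreas loci were kept, with 12256 CPM at 8 psu and 8946 CPM at 0 psu. Among them prss1, a trypsinogen, had 132493 counts at 8 psu and 87540 at 0 psu (log2 fold change 0.57). Islet cells were hardly seen, with 2 of 16 loci kept. In a pooled tissue, fewer cells of a type and less RNA per cell cannot be told apart.

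Among named genes with at least 100 counts in 1 library, the highest fold change belonged to cyp24a1, the mitochondrial enzyme that inactivates vitamin D metabolites. It had 790 counts at 8 psu against 39 at 0 psu, a log2 fold change of 4.09 (interval 3.85 to 4.82). Both enzymes that make the active hormone in mammals moved the other way. The 25-hydroxylase cyp2r1 had 585 counts at 8 psu and 2122 at 0 psu (-1.87, interval -2.02 to -1.75). The 1-alpha-hydroxylase cyp27b1 had 1232 counts at 8 psu and 5034 at 0 psu (-2.05, interval -2.14 to -1.96). So within the vitamin D list the degrading enzyme rose and the activating enzymes fell. The other 2 of the 5 members kept did not pass: dhcr7, which consumes the vitamin's precursor, had 824 counts at 8 psu and 661 at 0 psu, and gca, which shares only its letters with the binding protein gene gc, had 260 and 287.

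A similar position is held in retinoic acid metabolism by cyp26a1, which breaks retinoic acid down. It rose, with 838 counts at 8 psu against 184 at 0 psu (2.12, interval 1.93 to 2.40). Its relative cyp26b1 also rose, with 144 counts at 8 psu and 53 at 0 psu. The nuclear receptor rxrgb, a retinoid X receptor, fell, with 550 counts at 8 psu and 1309 at 0 psu (-1.26). The plasma retinol carrier rbp4 had 31421 counts at 8 psu and 18468 at 0 psu and stayed under 2-fold (0.74). Among thyroid hormone enzymes, dio3b, a deiodinase that inactivates the hormone, fell to 28 counts at 8 psu, against 276 at 0 psu (-3.03, interval -3.94 to -2.76). The activating deiodinase dio2 had 2214 counts at 8 psu and 3143 at 0 psu (-0.53), and dio1 had 691 and 481 (0.49). Of 24 loci in the list of retinoid and thyroid hormone enzymes, put together after values were seen, 4 rose and 4 fell. That is 33.3% of the list, beside 10.1% of all genes. Among the 8, bco2l did not pass with a pseudocount of 2 (0.88), nor dhrs9 with library totals (-0.90).

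Of the 20 genes with the highest fold changes and at least 100 counts, 16 have no symbol. The first of them, LOC102082407, a transcript that the table classes as miscellaneous RNA, had 1497 counts at 8 psu and none at 0 psu, and was at least 491-fold higher at 8 psu. It had 2 counts in the 16 psu library. The protein-coding locus LOC100708849 had 1595 counts at 8 psu and 108 at 0 psu (3.78). Besides cyp24a1 and cyp26a1, the named members were tRNA-Gln, with 724 counts at 8 psu and 190 at 0 psu, and sox4a, a transcription factor of the SOX family, with 231 and 63 (1.74). Transfer RNA loci were few: 18 were kept, of which 7 rose (38.9%) and 3 fell (16.7%). Over all genes these shares were 4.59% and 5.47%. The libraries were made from poly(A) RNA, and whether these reads show mature transfer RNA was not tested.

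At the other end, 6 of the 20 lowest genes had no read at 8 psu. The pepsin locus, whose product is a stomach protease, had 0 counts at 8 psu and 609 at 0 psu, at least 206-fold lower. The gene of enteropeptidase, tmprss15, which activates trypsinogen in the gut, had 0 counts at 8 psu and 216 at 0 psu, at least 73.2-fold lower. The zinc transporter slc30a8, known in mammals from pancreatic beta cells, had 0 counts at 8 psu and 171 at 0 psu. The locus with the lowest value, LOC100706176, has no symbol, and had 0 counts at 8 psu and 1009 at 0 psu. Others of the 20 lowest had reads at both salinities, among them gck (described with the sugar genes), fam124a with 43 counts at 8 psu and 681 at 0 psu (-3.80), and inhbab, an inhibin beta subunit, with 27 and 241 (-2.88).

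**Figure D2:**
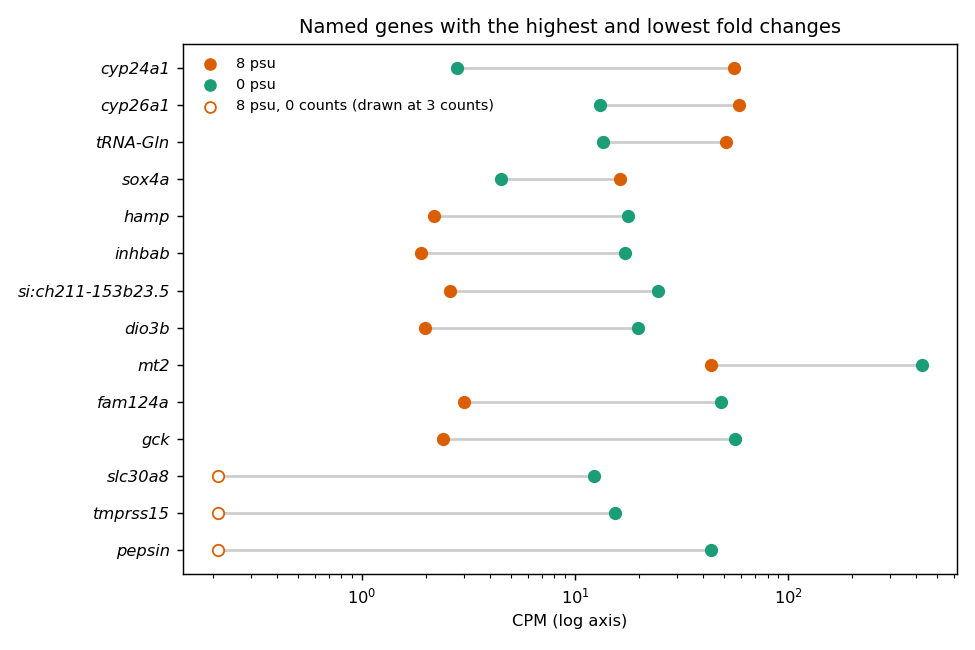
CPM (log axis) at 8 psu (orange) and 0 psu (green) of the named genes among the 20 highest and the 20 lowest fold changes with at least 100 counts in 1 library, 1 row per gene. Open circles stand for 0 counts, drawn at the level of 3 counts. From cyp24a1 to sox4a the orange point lies to the right, and from hamp to pepsin it lies to the left.

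Lipogenesis, the making of fatty acids and triglycerides from acetyl-CoA, had a median of -0.71 over 28 loci, with 9 fallen and 0 risen, against a median of 0.00 and 5.47% fallen over all genes. Of the 28 loci, 26 lay below 0. ATP citrate lyase, which supplies cytosolic acetyl-CoA, fell at both loci: aclya had 1195 counts at 8 psu and 4237 at 0 psu (-1.84, interval -1.94 to -1.76), and aclyb had 56 and 179 (-1.58). Acetyl-CoA carboxylase, acaca, had 2368 counts at 8 psu and 6253 at 0 psu (-1.42). The fatty acid elongase elovl6 fell too, with 910 counts at 8 psu and 2437 at 0 psu (-1.44).

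The enzymes that assemble triglycerides fell in part. The phosphatidate phosphatase lpin1a had 177 counts at 8 psu and 490 at 0 psu (-1.46). The acyltransferase dgat2 had 4207 counts at 8 psu and 9616 at 0 psu (-1.21), and mogat2, which is also an enterocyte marker, had 176 and 366 (-1.05). The fall of mogat2 was short of 2-fold with library totals (-0.93), a minimum of 100 counts or a pseudocount of 2. The desaturase scdb fell, with 70 counts at 8 psu and 197 at 0 psu, while the much more abundant scd had 167120 and 232694 and stayed within 2-fold (-0.50). The regulators were also within 2-fold: srebf1 had 849 counts at 8 psu and 1487 at 0 psu (-0.83), mlxipl had 356 and 363 (-0.05), and thrsp had 73047 and 107833 (-0.58).

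Outside the list, the entry fas fell, with 9761 counts at 8 psu and 36106 at 0 psu (-1.91, interval -1.94 to -1.88). What it encodes is not stated in the count table, and the gene name table gives that symbol to another locus, LOC102083126, which is listed separately with 60 counts at 8 psu and 48 at 0 psu. No role is given to the entry here.

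**Figure D3:**
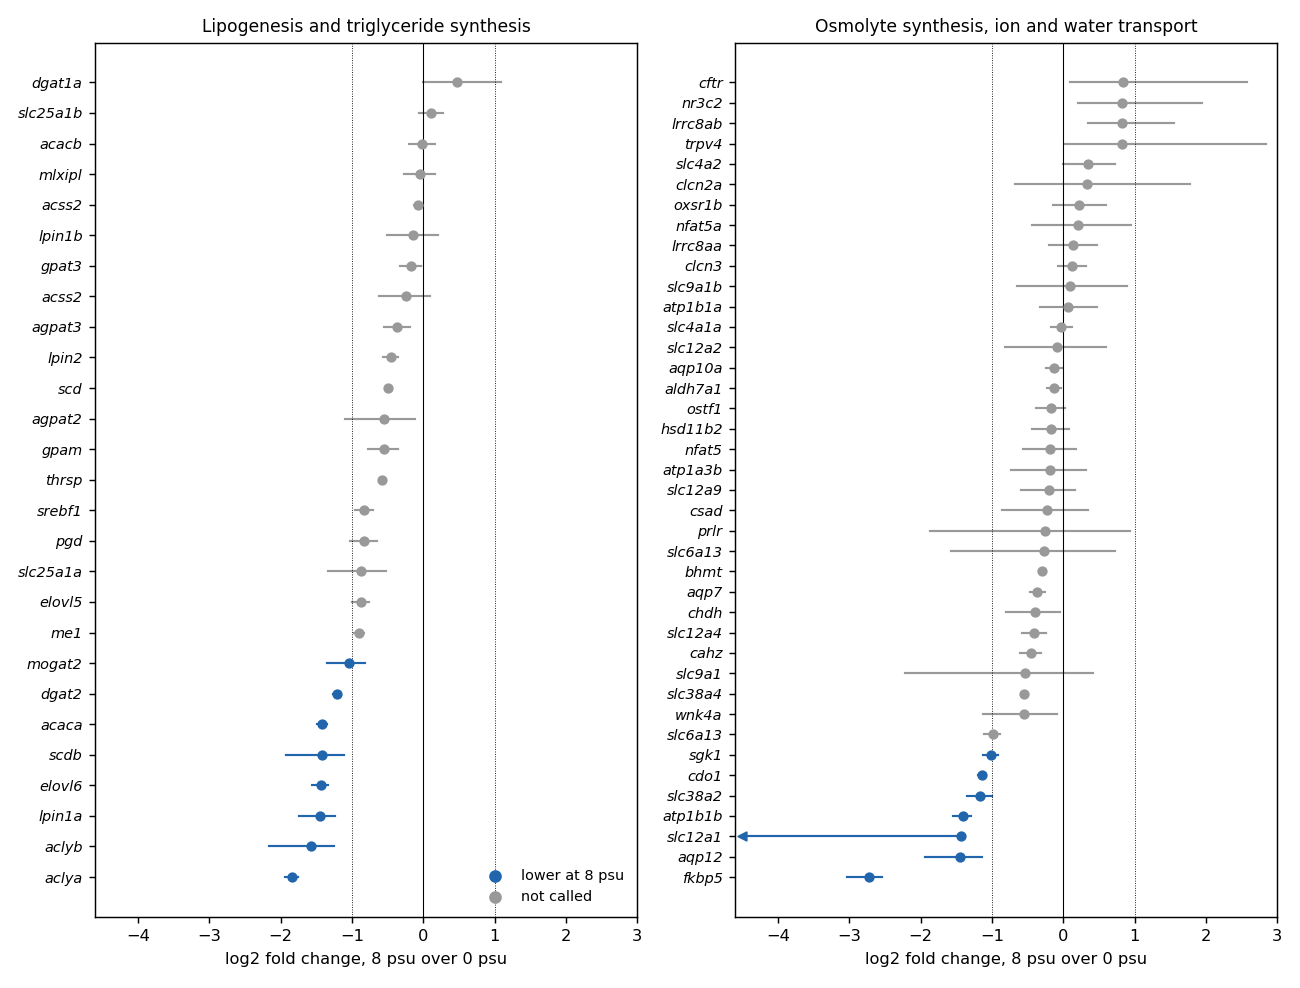
Log2 fold change, 8 psu over 0 psu, of loci kept in the list of lipogenesis and triglyceride synthesis (left, 27 of 28 loci drawn) and of osmolyte synthesis, ion and water transport (right, all 40 loci), with 95% counting intervals. Blue loci fell, grey ones did not pass, dotted lines mark 2-fold and an arrowhead marks an interval with no lower end. On the left dgat1a and slc25a1b are the points above 0, and on the right 28 of 40 points lie below 0.

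Some fat carriers and lipases fell as well. In the list of apolipoproteins and fatty acid-binding proteins, put together after values were seen, 6 of 18 loci fell and 2 rose, with a median of -0.66. The loci that rose or fell were 44.4% of the list, beside 10.1% of all genes. Of the 6, apoa4a, apoa4b and fabp2 are also enterocyte markers, whose list is given further on. The liver fatty acid-binding protein fabp10a had 74983 counts at 8 psu and 179465 at 0 psu (-1.28, interval -1.29 to -1.27), which is 5269 CPM against 12812 CPM. The relative fabp3 had 10439 counts at 8 psu and 25025 at 0 psu (-1.28). In the list of lipases, angiopoietin-like and lipid droplet proteins, also put together after values were seen, 3 of 18 loci fell and 0 rose (median -0.21). The 3 loci were 16.7% of that list, beside the same 10.1%. Endothelial lipase, lipg, had 352 counts at 8 psu and 2273 at 0 psu (-2.69), and lipoprotein lipase, lpl, had 1434 and 3152 (-1.16). The exceptions were afp4l, named after a fish antifreeze protein, with 159979 counts at 8 psu and 74541 at 0 psu (1.08, interval 1.07 to 1.09), and apoea, with 132 and 52 (1.21, and 0.98 with a pseudocount of 2). Its more abundant relative apoeb had 31034 counts at 8 psu and 53340 at 0 psu (-0.80).

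Sterol synthesis did not share the fall. Of 26 loci 1 rose and 2 fell, together 11.5% beside 10.1% of all genes, and the median was 0.11. The enzyme that rose was lss, lanosterol synthase, with 1797 counts at 8 psu and 854 at 0 psu (1.04). Squalene epoxidase, sqle, had 2030 counts at 8 psu and 1076 at 0 psu, short of 2-fold (0.89). The rate-limiting reductase hmgcra had 37076 counts at 8 psu and 38848 at 0 psu (-0.09). Of the LDL receptor loci ldlrb fell, with 483 counts at 8 psu and 2294 at 0 psu (-2.25), while ldlra had 3683 and 3986 (-0.14). In fatty acid oxidation 3 of 27 loci fell and 0 rose (median -0.15), 11.1% beside the 10.1% of all genes that rose or fell. Among the 3 was ppara, a fatty acid sensor, with 89 counts at 8 psu and 249 at 0 psu at 1 of its loci (-1.44).

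Glucokinase, gck, which traps glucose in hepatocytes after a meal, had 34 counts at 8 psu and 791 at 0 psu (-4.30, interval -5.10 to -4.07). It stood apart from its list, in which 2 of 22 glycolysis loci fell and 0 rose and the median was 0.21. The 2 loci were 9.09% of the list, beside the 10.1% of all genes that rose or fell. Pyruvate kinase, pklr, had 1952 counts at 8 psu and 1529 at 0 psu (0.33), and eno3 had 25264 and 13158 (0.92). In gluconeogenesis and glycogen metabolism 1 of 15 loci fell, the low fbp2 with 2 counts at 8 psu and 15 at 0 psu (-1.29, and -0.52 with a pseudocount of 2). There pck2 had 8358 counts at 8 psu and 10010 at 0 psu (-0.28), and gys2, glycogen synthase, had 3574 and 3327 (0.08).

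**Figure D4:**
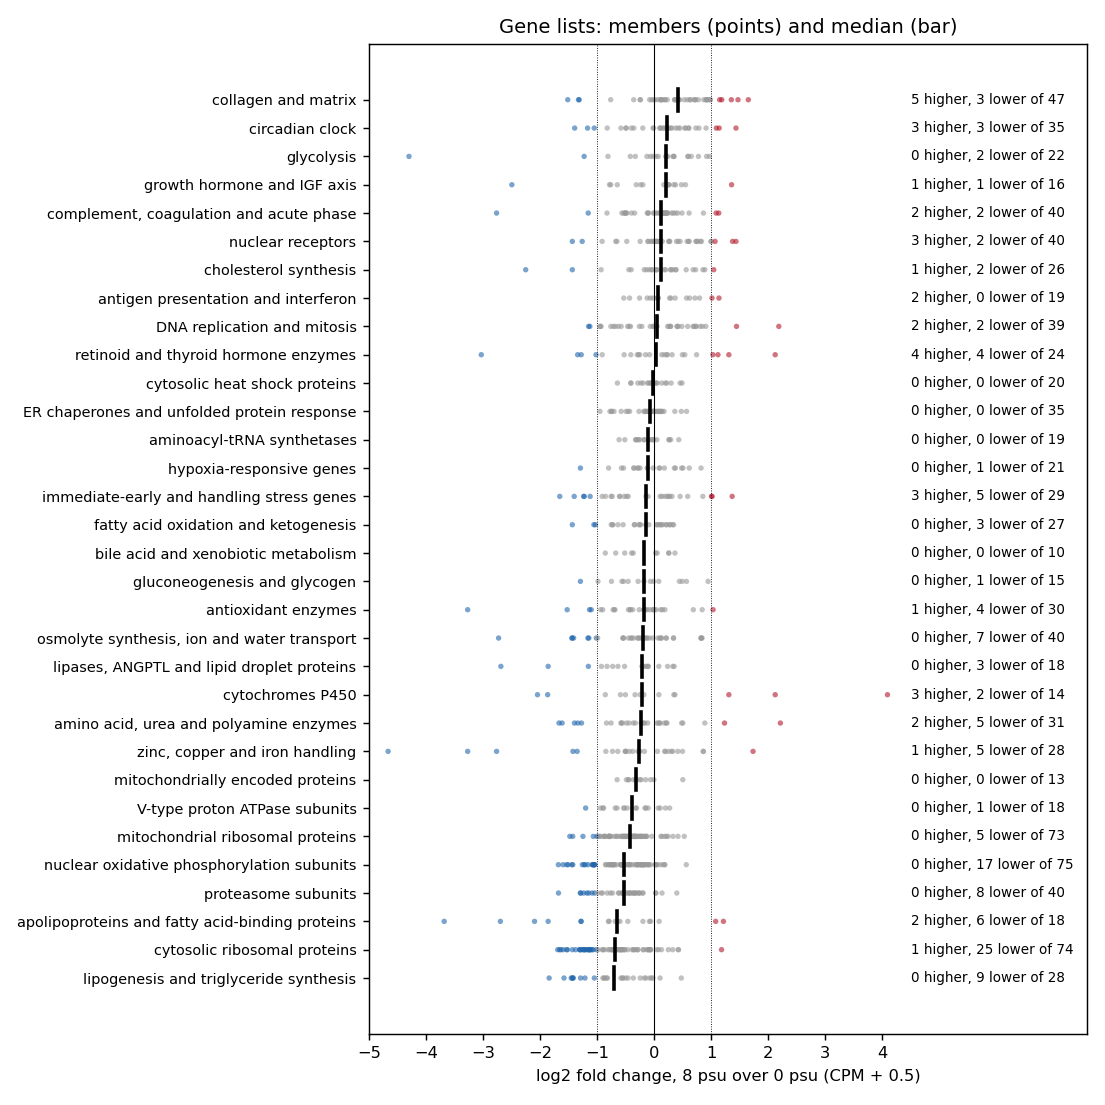
Log2 fold change, 8 psu over 0 psu, of the loci kept (points) and their median (bar) in each gene list with at least 8 loci, leaving out marker lists and 2 lists whose members are not drawn, with the number risen (red) and fallen (blue) beside it. Lipogenesis (-0.71) and cytosolic ribosomal proteins (-0.68) are at the bottom, and collagen and matrix (0.42) is at the top.

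Large complexes were lower as groups. Of 74 loci for cytosolic ribosomal proteins 25 fell and 1 rose, together 35.1% beside 10.1% of all genes. Their median was -0.68, and their summed level was 52059 CPM at 8 psu and 75618 CPM at 0 psu. Short of 2-fold with library totals were rpl10 (-0.89), rpl19 (-0.97), rps20 (-0.99) and rps3a (-0.94). Rpl35a had 1735 counts at 8 psu and 5533 at 0 psu (-1.69), and rpl13a had 3218 and 10024 (-1.66). The member that rose was rpl14, with 26609 counts at 8 psu and 11543 at 0 psu (1.18), and rplp0 had 28884 and 26007 (0.13), so the members did not move alike. The scaffold rack1, a part of the small subunit, had 20804 counts at 8 psu and 42725 at 0 psu (-1.06, and -0.94 with library totals). Of 75 nuclear loci for oxidative phosphorylation 17 fell (22.7%, beside 5.47% over all genes) and 0 rose (median -0.53). One example is cox7b, a cytochrome oxidase subunit, with 856 counts at 8 psu and 2412 at 0 psu (-1.51). Library totals left atp5f1d (-0.92), ndufa7 (-0.95), ndufa8 (-0.94), ndufb7 (-0.93), ndufs4 (-0.92), ndufs6 (-0.95) and uqcrq (-0.97) short of 2-fold. Of 40 proteasome loci 8 fell (20%) and 0 rose (median -0.53), for example psmb4 with 879 counts at 8 psu and 2122 at 0 psu (-1.29). Here psmb5 (-0.97) and psmc3 (-0.92) did not pass with library totals, nor psmd11b (-0.86) with a pseudocount of 2. Of 73 mitochondrial ribosomal loci 65 lay below 0 (median -0.42), but only 5 fell and 0 rose. That is 6.85% fallen, near the 5.47% over all genes. With a pseudocount of 2 mrpl47 (-0.98), mrps17 (-0.80) and mrps16 (-0.75) did not pass.

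Related lists with other functions lay nearer 0. The 13 proteins encoded in mitochondria had a median of -0.32 with 0 risen and 0 fallen, by the same read test and fold limit. Among 64 translation factor loci 1 rose and 1 fell (median -0.05). The aminoacyl-tRNA synthetases (19 loci, median -0.10), the chaperones of the endoplasmic reticulum (35 loci, -0.07) and the list of cytosolic heat shock proteins (20 loci, -0.03) had no member that rose or fell. The last list also holds serpinh1a (0.20) and serpinh1b (0.01), whose products are chaperones of the endoplasmic reticulum. With library totals as the scaling the medians of the translation factors, synthetases, chaperones and heat shock proteins were above 0, as was that of the heat shock proteins with the upper quartile.

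Osmolyte synthesis and ion and water transport is the list closest to the treatment, since fish cells balance salt with organic osmolytes such as taurine and with ion pumps. Of 40 loci kept 7 fell (17.5%) and 0 rose, with a median of -0.19, beside 5.47% fallen over all genes. The 7 include fkbp5 and sgk1, described further on. Another is the kidney marker slc12a1, with 0 counts at 8 psu and 12 at 0 psu (-1.44). With a pseudocount of 2 slc12a1 did not pass (-0.51). The beta subunit atp1b1b of the sodium pump had 687 counts at 8 psu and 1813 at 0 psu (-1.41, interval -1.55 to -1.30), while atp1b1a had 111 and 104 (0.07). Cysteine dioxygenase, cdo1, which starts taurine synthesis, had 4302 counts at 8 psu and 9381 at 0 psu (-1.15). The water channel aqp12 had 71 counts at 8 psu and 202 at 0 psu (-1.44), and the amino acid carrier slc38a2 had 378 and 842 (-1.16). A carrier for GABA and taurine in mammals, slc6a13, had 1031 counts at 8 psu and 2025 at 0 psu and was just inside 2-fold (-0.99). The osmotic transcription factor nfat5 had 118 counts at 8 psu and 133 at 0 psu (-0.19, interval -0.57 to 0.17).

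Cortisol, a stress hormone, also serves seawater adaptation in fish, and 4 genes known to answer to it in mammals are given here, taken from other lists after their values were seen. The chaperone fkbp5 had 162 counts at 8 psu and 1097 at 0 psu (-2.73, interval -3.03 to -2.54), and the kinase sgk1 had 1081 and 2158 (-1.02). The transcription factor klf9 had 154 counts at 8 psu and 493 at 0 psu (-1.66). The leucine zipper gene tsc22d3 had 7686 counts at 8 psu and 3766 at 0 psu and rose just past the limit (1.00), but not with DESeq2 size factors. The fall of sgk1 was also short of 2-fold with library totals (-0.89), the upper quartile (-0.99) or a minimum of 100 counts (-0.96). In the list of immediate-early and handling stress genes 3 of 29 loci rose and 5 fell, or 27.6%, beside 10.1% of all genes. Egr1 rose with 318 counts at 8 psu and 117 at 0 psu (1.37), and jun fell with 84 and 203 (-1.23).

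Among growth and reproductive genes, the growth factor igf2b had 87 counts at 8 psu and 516 at 0 psu (-2.50, interval -2.94 to -2.26). The insulin receptor substrate irs2b rose, with 261 counts at 8 psu and 96 at 0 psu (1.36). These were the 2 of 16 loci in the growth hormone and IGF list that passed, or 12.5%, beside 10.1% of all genes. The egg yolk precursor vtg, made in the liver under estrogen, had 1588 counts at 8 psu and 6407 at 0 psu (-2.03), and the estrogen receptor esr2a had 131 and 412 (-1.62). The second vitellogenin locus, vtg3, had 13576 counts at 8 psu and 13016 at 0 psu (0.04). The sexes of the pooled fish are not given.

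In amino acid, urea and polyamine metabolism 2 of 31 loci rose and 5 fell, or 22.6%, beside 10.1% of all genes. Ornithine carbamoyltransferase, otc, had 73 counts at 8 psu and 10 at 0 psu (2.21), and cps1, which makes its substrate, had 12 and 1 (1.23, and 0.46 with a pseudocount of 2). Ornithine decarboxylase, odc1, the entry to polyamines, had 137 counts at 8 psu and 367 at 0 psu (-1.40), and the mitochondrial arginase arg2 had 34 and 117 (-1.62). The transaminase got1 had 745 counts at 8 psu and 1866 at 0 psu (-1.34).

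Metal handling gave some of the larger losses. The metallothionein mt2, a zinc and copper store, had 621 counts at 8 psu and 5965 at 0 psu (-3.27, interval -3.41 to -3.17). Hepcidin, hamp, the hormone that limits iron export, had 31 counts at 8 psu and 248 at 0 psu (-2.76). The zinc transporters slc30a1a, with 55 counts at 8 psu and 149 at 0 psu, and slc39a10, with 123 and 337, also fell. The copper protein cp had 32946 counts at 8 psu and 17820 at 0 psu (0.86), and ferritin, fth1a, had 140838 and 188007 (-0.44). Of 28 loci in this list, put together after values were seen, 5 fell and 1 rose, or 21.4%, beside 10.1% of all genes.

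Matrix genes had a median of 0.42 over 47 loci, of which 37 lay above 0, 5 rose and 3 fell. The loci that rose or fell were 17.0% of the list, beside 10.1% of all genes. A pseudocount of 2 left col12a1a (0.80), vcanb (0.50), col12a1 (-0.88) and col18a1a (-0.89) short of 2-fold. The entries col12a1a, with 28 counts at 8 psu and 4 at 0 psu, and col12a1, with 20 and 60, went opposite ways. The proteoglycan dcn had 333 counts at 8 psu and 144 at 0 psu (1.15), and col16a1 had 128 and 41 (1.47). The main collagen chain col1a2 had 1745 counts at 8 psu and 1058 at 0 psu (0.70). Thrombospondin, thbs1b, went the other way with 79 counts at 8 psu and 204 at 0 psu (-1.32). Leukocyte markers had a median of 0.48 over 14 loci, or 0.18 with a minimum of 100 counts. The 17 loci listed summed to 1091 CPM at 8 psu and 1106 CPM at 0 psu. Of the 14 kept, 3 rose and 0 fell, which is 21.4% beside 10.1% of all genes. All 3 were low: zap70, a T cell kinase, had 104 counts at 8 psu and 41 at 0 psu, spi1b had 109 and 47, and ccr7 had 45 and 18. None of these 3 passed with a pseudocount of 2 (0.92, 0.85 and 0.65 in that order). The neutrophil enzyme mpx had 125 counts at 8 psu and 245 at 0 psu. In the antigen presentation and interferon list 2 of 19 loci rose and 0 fell, 10.5% of the list and near the 10.1% of all genes. They were rsad2 with 607 counts at 8 psu and 268 at 0 psu (1.14) and irf1b with 762 and 368 (1.01, and 0.97 with a pseudocount of 2).

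Several markers of gut and muscle were lower at 8 psu. Of 24 enterocyte loci listed, 13 were kept, of which 6 fell and 0 rose, and the summed counts were 3364 at 8 psu and 18465 at 0 psu. Apoa4b, an apolipoprotein of gut and liver, held most of these, with 2673 counts at 8 psu and 17110 at 0 psu (-2.70). Without it, a choice made after the values were seen, the other 23 loci summed to 691 counts at 8 psu and 1355 at 0 psu. Most of these came from tm4sf4 (289 at 8 psu and 544 at 0 psu), mogat2 (176 and 366) and plb1 (129 and 137). Of the 13 kept, 11 lay below 0 and 2 above, anpepa with 24 and 15 counts and mep1bb with 31 and 19. No read at 8 psu was found for fabp2, the intestinal fatty acid-binding protein, or for the peptide carrier slc15a1b, each with 23 counts at 0 psu and neither past the limit with a pseudocount of 2, nor for the brush border protease mep1b, with 48 at 0 psu. In all 12 of the 24 loci were at 0 at 8 psu, and 6 at 0 psu. The pepsin and tmprss15 values given above belong beside these, and 2 stomach loci listed summed to 0 counts at 8 psu and 8 at 0 psu. Of 40 skeletal muscle loci 18 were kept, of which 7 fell (38.9%, beside 5.47% over all genes) and 0 rose. Among the 7, ckma, ckmb, mylpfa, mybpc1 and ttn reached the count minimum at 0 psu only. A low locus passes that minimum more readily when its libraries differ, so the 2 shares cannot be compared closely. Without the minimum, 15 of the 40 loci had no read at 8 psu, and 8 had none at 0 psu. Even so, the summed counts of the list were 78368 at 8 psu and 72504 at 0 psu. Nearly all of these came from mb, with 52555 counts at 8 psu and 58477 at 0 psu, and from eno3, given above. Without both, a choice made after the values were seen, the remaining 38 loci summed to 549 counts at 8 psu and 869 at 0 psu. Among these, desma had 51 counts at 8 psu and 202 at 0 psu, and creatine kinase ckma had 9 and 47. With a pseudocount of 2 mylpfa (-0.97), mybpc1 (-0.70), ckmb (-0.66) and ttn (-0.47) did not pass. Of 11 erythrocyte loci 0 rose or fell, with a summed level of 325 CPM at 8 psu and 331 CPM at 0 psu. The part of gut or muscle tissue in the other differences was not tested.

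**Figure D5:**
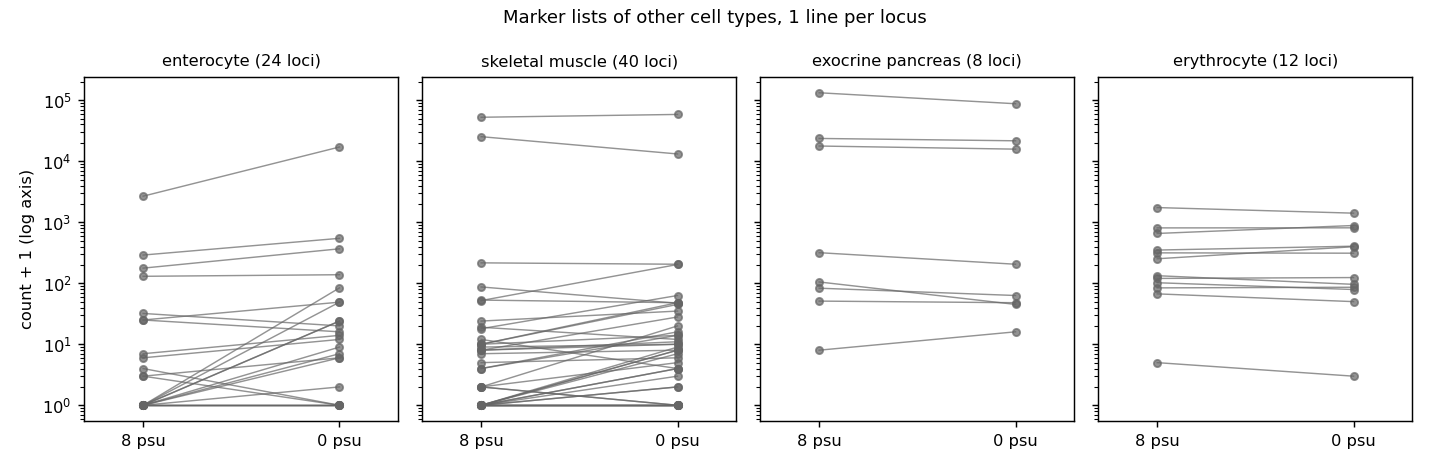
Count plus 1 (log axis) of each marker locus in the table at 8 psu and 0 psu, joined by a line, for enterocyte (24 loci), skeletal muscle (40), exocrine pancreas (8) and erythrocyte (12). Several enterocyte loci with 10 to 100 counts at 0 psu have no read at 8 psu, while all 8 pancreas and all 12 erythrocyte loci have reads in both libraries.

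Beside the 10.1% of all genes that rose or fell, the share was 16.7% of antioxidant loci and 17.1% of circadian clock loci, and 4 of 40 loci for complement, coagulation and acute phase. Of the 40, 2 rose and 2 fell (median 0.12). The 2 that fell were hamp, given above with the metal genes, and leap2. The plasmin inhibitor serpinf2a had 3791 counts at 8 psu and 1753 at 0 psu (1.09), and the antimicrobial peptide leap2 had 2339 and 5145 (-1.16). Of 30 antioxidant loci 1 rose and 4 fell, among them mt2, also given above with the metal genes. Another was gpx1b, a glutathione peroxidase, with 507 counts at 8 psu and 1081 at 0 psu (-1.10, and -0.98 with library totals). Of 35 circadian clock loci 3 rose and 3 fell (median 0.22). Roraa rose with 100 counts at 8 psu and 32 at 0 psu (1.43). Ciarta fell with 235 and 487 (-1.05, and -0.93 with library totals). With a pseudocount of 2 ciarta (-0.99), cipcb (-0.98), cry5 (0.55) and clocka (-0.53) did not pass, so the share of clock loci rests largely on low counts. Of 21 hypoxia-responsive loci 1 fell, and of 10 for bile acid and xenobiotic metabolism none rose or fell.

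Cell cycle genes were low in both libraries, and of 39 loci 2 rose and 2 fell (median 0.04). That is 10.3% of the list, near the 10.1% of all genes. The cell cycle inhibitor cdkn1bb had 53 counts at 8 psu and 6 at 0 psu (2.19), and mcm6, a part of the replicative helicase, had 62 and 18 (1.44, and 0.95 with a pseudocount of 2). The mitotic kinase cdk1 had 24 counts at 8 psu and 61 at 0 psu (-1.15, and -0.79 with a pseudocount of 2). In the solute carrier list, put together after values were seen, 5 of 207 loci rose and 17 fell. Together these were 10.6% of the list, near the 10.1% of all genes. The citrate carrier slc13a5 had 134 counts at 8 psu and 529 at 0 psu (-1.95), its relative slc13a3, a carrier of dicarboxylates, had 616 and 273 (1.13), and the prostaglandin carrier slco2a1 had 210 and 68 (1.51). Of 18 loci in the list of proton pump subunits 1 fell, atp6v1h, with 120 counts at 8 psu and 281 at 0 psu (-1.20). The list was put together after values were seen. It also caught ATP6, a mitochondrially encoded subunit of ATP synthase, which did not pass (-0.65).

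Fish carry many genes in 2 copies, named with a final a and b, and the copies did not always share a call. Of 619 symbol pairs of this form with both loci kept, 82 had a locus that rose or fell. In 77 of them it was 1 of the 2, in 4 both moved the same way and in 1 they moved in opposite directions. In 537 pairs neither locus rose or fell. Over all genes 10.1% rose or fell, and the split of pairs to be met from the share of calls alone was not worked out. A call at 1 of the 2 does not show that the copies differed, which was not tested: coq10a had a log2 fold change of -0.62 and coq10b of -1.03. The pair with opposite directions was elovl8a, with 844 counts at 8 psu and 404 at 0 psu (1.03, and 0.99 with a pseudocount of 2), and elovl8b, with 91 and 219 (-1.23), both fatty acid elongases. Some pairs of this form are older relatives and not fish duplicates, such as acaca and acacb, and reads of near-identical copies may have been split between them in counting.

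Beside the 16 psu library, which had 16112951 counts, the genes above took different courses, given here in that order of salinity, from freshwater upwards. Cyp24a1 had 39, 790 and 1219 and gck had 791, 34 and 6, continuing in 1 direction. Mt2 had 5965, 621 and 441, and cyp27b1 had 5034, 1232 and 1414, staying low. Fkbp5 had 1097, 162 and 994, elovl6 had 2437, 910 and 2575, and lpl had 3152, 1434 and 4907, so that for these the 8 psu library was the low one. The muscle marker ckma had 47, 9 and 171, and fabp2 had 23, 0 and 0. These courses rest on 1 library each.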

How the data were processed

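Poly(A) RNA of 8 pooled fish per salinity was sequenced as single-end Ion Proton reads. After filtering, the authors aligned reads to the Orenil1.1 assembly using MapSplice, and the table they deposited holds raw, unscaled counts per gene and library. The submitters' processing notes name HTSeq. Its settings, the use of strand and the treatment of multi-mapping reads are not given in the sources used here. Counts were scaled by TMM over the 2 libraries (edgeR 4.0.16, R 4.3.3) and tested in Python 3.11.15 with scipy 1.17.1. A pseudocount of 0.5 CPM and a minimum of 10 counts were used. The read test was tried on simulated Poisson reads, the spread it assumes. That trial held no variation between fish, tanks or libraries, so it cannot check the differences between the pools.

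Symbols came from a gene name table of another assembly (O_niloticus_UMD_NMBU), so no coordinate is given. It held 23652 of 27855 locus numbers, and 11146 of the genes kept have a symbol. List members were matched by symbol with or without a trailing a, b or l, which can also catch an unrelated gene. Named genes are the 20 highest and 20 lowest fold changes among called genes with at least 100 counts, the 20 largest changes in CPM, the 10 most abundant genes and the list members. Members and lists were chosen with earlier results of these data known, and 10 of 47 lists after values were seen. A planned split by protein length was not run, because the table used here gives none. Alternatives were other scalings, count minimums, pseudocounts and fold limits, no read test, and edgeR's exact test at assumed biological coefficients of variation. Some list members are counted in their lists and not reported here by name.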

Additional observations from a re-analysis of the deposited data

How the results depend on the processing

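The number of genes that differed, 1596 (728 higher and 868 lower at 8 psu), was within 1.5 times under the other scalings, with no count minimum, with a pseudocount of 0.1 and with the fold limit alone. It was 544 (210 higher, 334 lower) with a minimum of 100 counts, 532 (157 and 375) with a pseudocount of 2, 3577 (1698 and 1879) at a fold limit of 1.5, and 137 (37 and 100) at a fold limit of 4. An assumed biological coefficient of variation of 0.2 left 486 genes (180 and 306), and 0.4 left 38 (5 and 33). These coefficients were assumed, since no 2 libraries share a salinity. Library totals gave 976 higher and 700 lower, or 58.2% higher against 45.6% with TMM. Of 229 named genes that rose or fell, 156 did so under each of the 8 alternatives of scaling, minimum and pseudocount in which they were tested, 73 lost the call in at least 1 (56 with a pseudocount of 2, 26 with library totals), and none turned its direction. Depth limits the genes under 1 CPM most. No paired analysis was possible because each salinity has 1 library. Leaving out a library was not possible for the same reason.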
